A study of Mus musculus with 104 samples.

Results

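The regions described here are 202 windows of 1 kb, away from the chromosomes that carry the baits, in which broken DNA ends joined to a single bait break. A window was taken when it held at least 10 junctions over 24 pools of libraries and at least 90% of them came from one bait. Windows began at multiples of 1 kb plus 1, and chromosomes 7, 12, 15 and X were left out. Of 249674 windows with at least 1 junction, 400 held 10 or more, 202 of these met the share rule, and 198 did not. Adjoining windows of one bait were joined, which gave 157 sites: 76 for the bait on chromosome 7, 13 for the bait on chromosome 12 and 68 for the bait on chromosome 15 (bait 7, bait 12 and bait 15 below). Because junction counts and bait shares chose the windows, those values are given as a description and carry no test.

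High-throughput genome-wide translocation sequencing (HTGTS) reads the DNA that becomes joined to one chosen double-strand break, the bait. The joined partner, the prey, marks a second break elsewhere in the genome, and a linear amplification from a primer beside the bait recovers the joint. A bait nuclease that also cuts a look-alike sequence leaves an off-target break, at which prey ends on both strands point away from one point. Short tandem repeats and sequence shared between bait and prey can also gather junctions, and there the strands need not be arranged around one point. Cas9, the nuclease of many such experiments, pairs a guide with a 20-base target beside an NGG motif and cuts 3 bases from it. None of the sources used here names the nuclease or its guides.

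The samples were genomic DNA from 2 mouse lines of embryonic stem cells (ESC) and from induced neural progenitor cells (NPC) of the same line numbers. All carried the genotype Xrcc4-/- p53-/- in the strain C57BL6/129SVE (also written C57BL/6/129SVE), so the DMSO controls also lacked Xrcc4, a factor of classical end joining, and p53, a tumour suppressor. Cells of each type and line were labelled APH or DMSO. APH is the usual short name of aphidicolin, an inhibitor of replicative DNA polymerases, and DMSO is its solvent; no dose or time was given. Each of the 24 pools joined one cell type, line, bait and treatment from 4 labelled experiments, or 8 in ESC line 1 with bait 7, and 104 samples were listed in all. Junction tables hold no expression values, so the labelled cell types could not be checked against markers. The pools held 2018794 junctions after repeated read names were dropped, and 397358 of these lay off chromosomes 7, 12, 15 and X and are called counted junctions. A pool had from 3225 to 68020 of them. ESC supplied 21.3% of the counted junctions of bait 7, 26.0% of bait 12 and 11.0% of bait 15, so ESC levels rested on fewer junctions throughout.

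The bait breaks were placed from the reads themselves, and every 20-base stretch beside NGG whose cut would fall within 2 bases of a break was taken as a candidate target. These sequences are shown because the search for look-alike sites rests on them. Coordinates are of the mouse build mm9 and capitals mark the NGG. Bait 15 had candidates at chr15:86848202-86848224 and chr15:86848203-86848225 on the minus strand, bait 7 at chr7:80451936-80451958 and chr7:80451937-80451959 on the plus strand, and bait 12 had 3 candidates between positions 13000844 and 13000877 of chromosome 12.
Bait 15, candidate 1: aaggtcaaggtgaacacgtaGGG
Bait 15, candidate 2: caaggtcaaggtgaacacgtAGG
Bait 7, candidate 1: ctggtatgcagtggagcacaTGG
Bait 7, candidate 2: tggtatgcagtggagcacatGGG
Bait 12, candidate 1: catagtgctgcctatctcgaGGG
Bait 12, candidate 2: attccgccaaccctcgagatAGG
Bait 12, candidate 3: tcatagtgctgcctatctcgAGG

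Look-alikes of the bait's own target lay at the most frequent junction of 12 sites, 9 of bait 15 and 3 of bait 7. A look-alike had at most 6 mismatches in 20 bases, NGG or NAG beside it, and a cut within 10 bases of the junction position seen most often. The site sequences were rebuilt from the prey reads, which was possible near that position for 115 of the 157 sites. Of the 12 look-alikes, 3 of bait 15 were in tandem repeats and are taken up with those. The other 9 are called matched cuts, and 8 of them are shown as read beside the target, with capitals at the mismatched bases.
Bait 15, chr4:82963082-82963104: aaggCcaaggtgaacacAtCgag
Bait 15, chr16:50963884-50963906: TaaggtcaaggCAaacaTgtggg
Bait 15, chr17: caaggCcaaggtgaGcacTGtgg
Bait 15, chr5: TaaggAGaaggtgaacacgGagg
Bait 15, chr6: TCCggtcaagAtgaacacCttgg
Bait 15, chr16, second site: GCTggCcaaggCCaacacgtcgg
Bait 7, chr2: GgAtatgcagtggagcaTatggg
Bait 7, chr1: GTTtatgcagtAgagcacatggg

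Counting positions from 1 at the 5′ end of the target and giving the target's base first, the chromosome 4 site differed from bait 15 candidate 1 by T5C, G18A and A20C and was followed by NAG. The chromosome 2 site differed from bait 7 candidate 2 by T1G, G3A and C18T and was followed by NGG. These were the closest look-alikes of either bait, with 3 mismatches each. The ninth matched cut, of bait 7, lay on chromosome 18 between bases 14713928 and 14713929 and had 4 mismatches. Matches to bait 15 had 3 to 6 mismatches and those to bait 7 had 3 or 4.

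The look-alikes were those of the bait that had recovered the site. Measured against the targets of the other baits, the same 115 sites had at least 9 mismatches and a median of 11, and none reached 6. Against their own bait's targets the median was 12, with the 12 look-alikes standing below it. Among the 198 windows that failed the share rule, 119 could be searched and none came within 6 mismatches of any bait target; the lowest value was 8. Own-target matches were found in 9 of 58 searched sites of bait 15, 3 of 51 of bait 7 and 0 of 6 of bait 12.

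**Figure D1:**
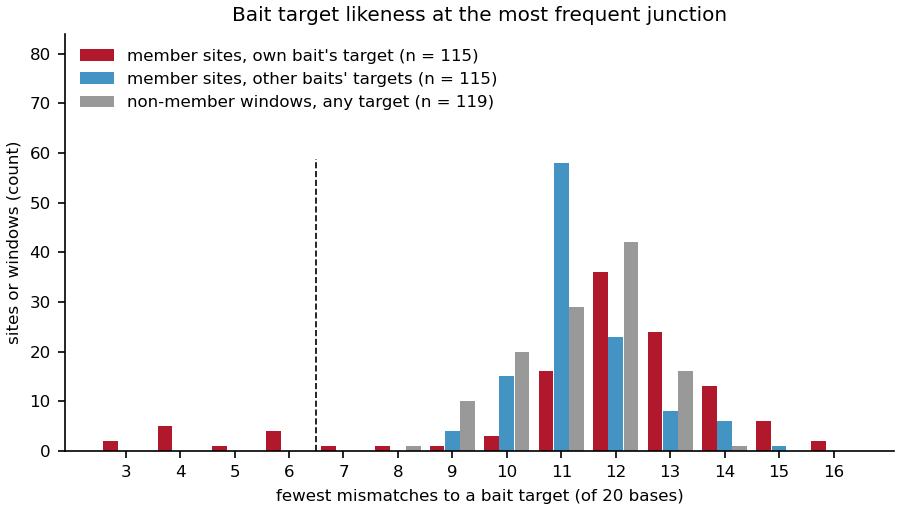
Fewest mismatches to a candidate bait target (of 20 bases) on the x axis and number of sites or windows on the y axis, for member sites against their own bait's target (red, n = 115), the same sites against the other baits' targets (blue, n = 115) and non-member windows against any target (grey, n = 119). The dashed line marks the limit of 6 mismatches, and only red bars stand to its left.

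Junctions at the matched cuts spread outward from the cut on both sides. At the chromosome 4 cut, between bases 82963098 and 82963099, 2695 junctions of bait 15 lay within 10 kb, of which 20.7% were within 10 bases, 42.1% within 100 and 67.9% within 1 kb. Prey that ran away from the cut, on the plus strand to its right or the minus strand to its left, made up 81.6%. The median distance was 344 bases there and 22 to 76 bases at the other 8 cuts. Strands were nearly even, with 1356 plus and 1327 minus junctions in the 15 joined windows chr4:82956001-82971000. Every matched cut had from 81.6% to 90.7% of its junctions running away from the cut, although the search for look-alikes used no strand. The chromosome 1 site of bait 7 had the highest share (90.7% of 193 junctions) and the chromosome 4 site the lowest.

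**Figure D2:**
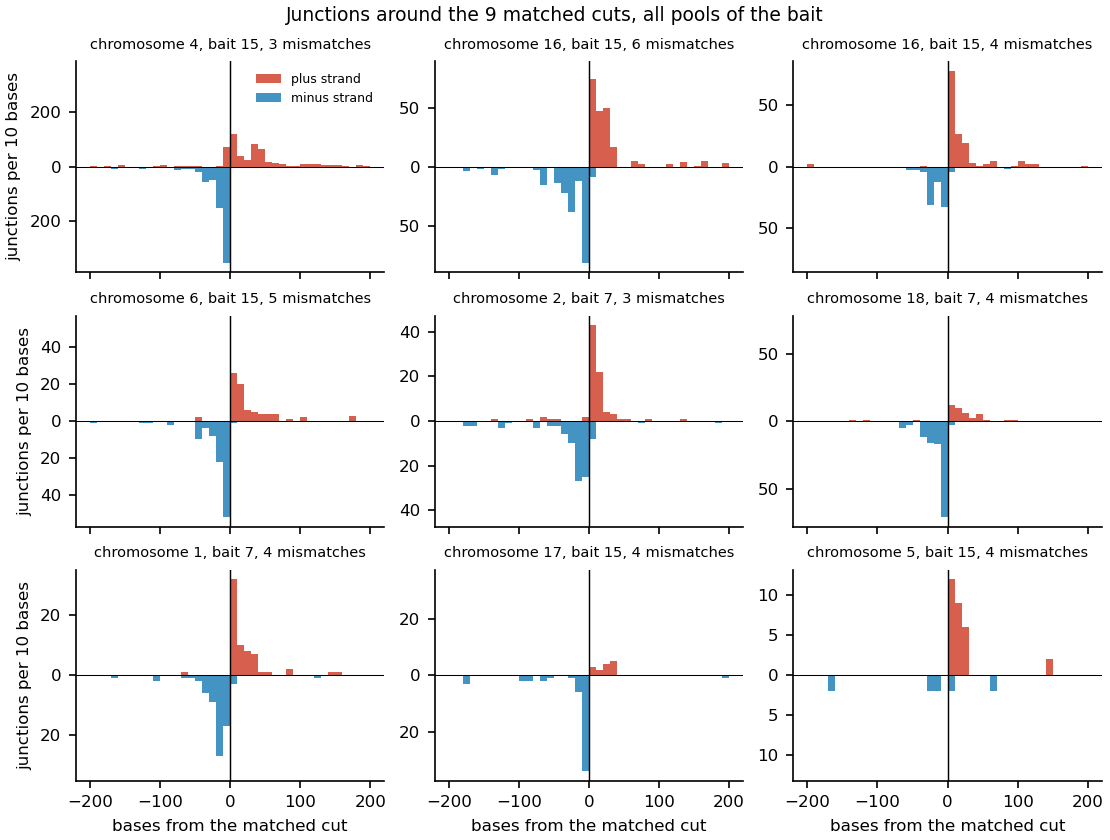
Junctions per 10 bases (y axis, plus strand upward in red and minus strand downward in blue) against distance in bases from each of the 9 matched cuts (x axis), summed over the 8 pools of the bait; y scales differ between panels. Plus-strand junctions stand mainly to the right of each cut and minus-strand junctions mainly to its left.

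The chromosome 4 site held more junctions than any other member, 2683 in its joined windows and 1.24% of all counted junctions of bait 15 within 10 kb of the cut. After it came 2 sites of bait 15 on chromosome 16, with 743 junctions within 10 kb of the cut at 92516546 and 426 around the cut at 50963889. The chromosome 6 cut at 72386456 had 316 junctions, the chromosome 17 cut at 27094558 had 116 and the chromosome 5 cut at 123902514 had 64. For bait 7 the values were 261 on chromosome 2 (cut at 161808234), 244 on chromosome 18 and 193 on chromosome 1 (cut at 109162749), closer to each other than those of bait 15. The number of mismatches did not order the sites of bait 15: the site with 6 mismatches on chromosome 16 had more junctions than 4 sites with 4 or 5 mismatches. Other baits gave 1 to 12 junctions in the same 10 kb stretches of these cuts, except chromosome 5 with 0. A further 2 member sites, chr16:50959001-50961000 and chr2:161804001-161805000, lay within 10 kb of a matched cut, and so did the windows of bait 7 at chr1:109160001-109161000 and chr1:109161001-109162000, which missed the rule with 9 junctions each.

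Matched cuts were recovered far more often in NPC than in ESC, which is given as a description. ESC alone held under 10 junctions in 43 of their 44 windows and NPC alone in 0. Those windows therefore passed the junction limit only with NPC. Around the 6 cuts of bait 15, ESC pools had 0 and 45.7 junctions per 10000 counted in line 1 (APH and DMSO) and 14.0 and 50.9 in line 2. NPC pools had 193 and 295 in line 1 and 214 and 231 in line 2. All 4 NPC values stood above all 4 ESC values. In ESC line 1 DMSO 1 of the 4 experiments had 164 per 10000 and the lowest had 5.37. Around the 3 cuts of bait 7, ESC pools had 16.9 and 12.4 in line 1 and 3.52 and 2.62 in line 2, while NPC pools had 92.8 and 166 in line 1 and 64.7 and 137 in line 2, again without overlap. ESC values for bait 7 rested on 1 to 7 junctions a pool. Per 10000 of all junctions of the pool, bait chromosomes included, NPC had 62.1 to 86.4 against 0 to 6.99 in ESC for bait 15, and 15.1 to 24.1 against 0.190 to 1.14 for bait 7.

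**Figure D3:**
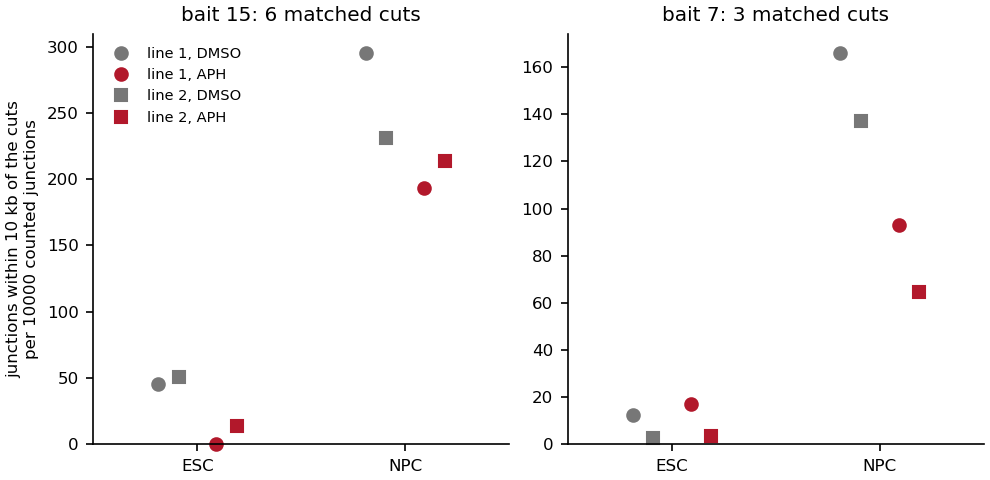
Junctions within 10 kb of the matched cuts per 10000 counted junctions (y axis, starting at 0) in each ESC and NPC pool. The left panel shows the 6 cuts of bait 15 and the right panel the 3 cuts of bait 7. Each point is a pool and its mark gives line and treatment. NPC pools lie between 64.7 and 166 for bait 7 and between 193 and 295 for bait 15, above every ESC pool. Nearly all windows of these cuts passed the junction limit only with NPC, so the gap is a description.

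The cell types were compared for each of the 400 windows by edgeR's quasi-likelihood test over all 24 pools, with cell line and bait as blocks and counted junctions as library size. At an adjusted p under 0.05, NPC was higher in 40 of 400 windows (10.0%) and lower in 153 (38.2%); among the 202 members it was higher in 37 and lower in 46. ESC alone held under 10 junctions in 36 of the 37 higher members, and NPC alone held under 10 in 28 of the 46 lower ones, so these windows passed the junction limit only with the cell type in which they were high. Counts and medians by kind are therefore a description of the members and not support for a difference. The same holds for the tests of single windows below in which NPC was higher. Of these only chr4:82963001-82964000 reached the limit in ESC alone. It had 0, 11, 5 and 9 ESC junctions (line 1 APH, line 1 DMSO, line 2 APH, line 2 DMSO). The 44 windows of the 9 matched cuts gave 26 of the 37 higher calls (59.1% of the 44) and 0 lower calls, with a median log2 NPC over ESC of 2.81, against -0.96 over all 400 windows. Since the sites were sorted into kinds after their values were seen, no test was run between kinds. ESC and NPC were also grown in different media, and medium and cell type cannot be told apart. With normalization by trimmed mean of M values (TMM), the median over all windows moved to 0.47 and that of the matched windows to 3.64, and calls over all windows became 102 higher (25.5%) and 88 lower (22.0%). DESeq2 called 0 of the members, with 2 at an unadjusted p under 0.05.

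At chromosome 4, the counts in the joined windows were 0, 17, 7 and 15 in ESC (line 1 APH, line 1 DMSO, line 2 APH, line 2 DMSO) and 804, 527, 685 and 627 in NPC in the same order. The window chr4:82963001-82964000 alone held 1501 junctions, and NPC over ESC was 2.96 on the log2 scale (SE 0.45, edgeR adjusted p = 9.00e-10). The chromosome 16 site around 92516546 had 0, 4, 0 and 3 junctions in ESC and 222, 125, 183 and 163 in NPC, and its fullest window, chr16:92516001-92517000 with 471 junctions, a log2 difference of 3.46 (SE 0.65, edgeR adjusted p = 7.31e-07). Its counterpart around 50963889 had 0, 3, 0 and 1 against 98, 88, 88 and 99, and its fullest window, chr16:50963001-50964000 with 268 junctions, a log2 difference of 3.02 (edgeR adjusted p = 8.89e-05). In all 3 the ESC line 1 APH pool was at 0 and every NPC pool was far above the highest ESC pool.

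The 5 joined windows of the chromosome 6 site had 0, 3, 1 and 2 junctions in ESC and 90, 53, 59 and 81 in NPC, 5.85-fold higher in NPC per counted junction. The window chr6:72386001-72387000 within it had 0, 2, 1 and 2 against 64, 38, 41 and 59, a log2 difference of 2.24 (SE 0.70, edgeR adjusted p = 0.00404), and without line 1 the adjusted p was 0.323. Its most frequent junction lay 2033 bases from sequence shared with the RefSeq promoter of Particl, a noncoding RNA gene. The chromosome 17 site chr17:27094001-27095000 had 0, 0, 0 and 1 against 24, 18, 16 and 24 (log2 difference 2.86, edgeR adjusted p = 0.00837), and without the ESC line 1 DMSO pool of bait 15 the adjusted p was 0.0527, and without line 1 it was 0.428. At chr5:123902001-123903000, 47 junctions were all from NPC (16, 7, 10 and 14) and ESC had 0 in each pool. Taking 3 junctions over the ESC pools as the floor, NPC was at least 1.94-fold higher there per counted junction. The ESC depth therefore limited what could be said of the smaller sites.

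Of the bait 7 sites, chromosome 2 had a single ESC junction, in line 1 APH, against 54, 49, 35 and 84 in NPC. Its window chr2:161808001-161809000 met the junction limit through NPC alone, as did the chromosome 18 and chromosome 1 windows below. It had none in ESC, so no test is given for it. Over the joined windows NPC was 60.0-fold higher per counted junction, on that 1 ESC junction. The 4 joined windows on chromosome 18 had 4, 2, 1 and 1 in ESC and 75, 55, 29 and 56 in NPC, 7.27-fold higher in NPC per counted junction. The window chr18:14713001-14714000 within them, with 186 junctions, had a log2 difference of 2.24 (SE 0.60, edgeR adjusted p = 0.000608), with adjusted p = 0.0907 without line 1, 0.107 without line 2 and 0.0612 without the 3 tables whose experiment letters differ from the labels. Chromosome 1 had 1, 2, 0 and 0 in ESC and 42, 56, 13 and 48 in NPC over 2 joined windows. Its window chr1:109162001-109163000, with 147 junctions, had a log2 difference of 3.43 (SE 0.75, edgeR adjusted p = 2.43e-05; 0.0556 without line 1). NPC supplied 96.4% to 100% of the junctions of the matched sites, with a median of 98.8%.

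A further 24 sites, in 34 windows, had junctions on both strands and no look-alike was found within the limits: 16 of bait 15, 6 of bait 7 and 2 of bait 12. Among them are chr16:50959001-50961000, which lay within 10 kb of a matched cut, and chr17:70619001-70620000, whose near match is given below. The 24 sites were grouped by at least 2 junctions on each strand and at least 10% on the less frequent strand. At least 80% of junctions also had to lie on the outward side of the best separating point. A site with nearly all junctions on the same strand can meet that last limit too. In 19 of the 24 the median plus-strand position lay to the right of the median minus-strand position. In 11 of the 34 windows (32.4%, against 10.0% of all 400) NPC was higher and in 1 (2.94%, against 38.2%) it was lower; the median log2 difference was 2.12, and NPC supplied a median of 99.0% of a site's junctions. With TMM 27 were higher (79.4%, against 25.5% of all windows) and 0 lower (against 22.0%). ESC alone held under 10 junctions in 33 of these 34 windows.

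The most populated of these was bait 15's site at chr11:69391001-69397000, with 190 plus and 130 minus junctions. Its most frequent junction, at 69393877, lay in sequence shared with the RefSeq promoters of both Trp53, which encodes p53, and Wrap53, a gene read in the opposite direction whose protein serves telomerase assembly. ESC pools had 0, 3, 3 and 3 junctions and NPC pools 90, 64, 87 and 70. Within it the window chr11:69393001-69394000, with 0, 3, 3 and 3 in ESC and 63, 44, 60 and 49 in NPC, differed by 1.55 on the log2 scale (SE 0.62, edgeR adjusted p = 0.0270). That call was lost on leaving out any one of 4 pools of bait 15, with adjusted p = 0.162 without ESC line 1 APH, 0.105 without NPC line 1 DMSO, 0.0719 without NPC line 2 APH and 0.0607 without NPC line 1 APH. Counting each position and strand once per pool gave an adjusted p of 0.229, and leaving out line 1 gave 0.583. The closest own-target stretch there had 7 mismatches, 1 over the limit, and is shown for that reason.
Bait 15, chr11, 7 mismatches: TTTAgCcaGggtgaGcacgtggg

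Bait 7's site at chr11:113035001-113039000 had 208 junctions, 99 of them on the plus strand, and its closest stretch had 9 mismatches to the bait 7 target. Its counts were 0, 3, 1 and 0 in ESC and 48, 43, 35 and 78 in NPC, a log2 difference of 3.60 in the window from 113036001 (SE 0.73, edgeR adjusted p = 5.48e-06). The site chr14:70753001-70754000 of bait 7 had 1, 1, 1 and 2 against 34, 25, 15 and 27 (log2 difference 2.28, edgeR adjusted p = 0.00361; 0.250 without line 1). At chr19:41335001-41337000, of bait 15, ESC pools had 0, 2, 0 and 2 and NPC pools 20, 7, 15 and 17, and its fullest window, chr19:41336001-41337000, did not pass the test (log2 difference 0.47, edgeR adjusted p = 0.640).

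At chr17:70619001-70620000, bait 15 had 2, 0, 0 and 0 junctions in ESC and 21, 18, 17 and 21 in NPC. The log2 difference of 2.10 (edgeR adjusted p = 0.0349) was lost without any one of 6 pools, the adjusted p then ranging from 0.0585 to 0.157, and also without line 1 (0.132) or line 2 (0.357). A stretch with 3 mismatches, A2C, G13C and G19A from candidate 2, had its cut 12 bases from the most frequent junction. It missed the 10-base limit and is shown because it came closer to the target than 7 of the 9 matched cuts.
Bait 15, chr17:70619456-70619478: cCaggtcaaggtCaacacAtagg

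**Figure D4:**
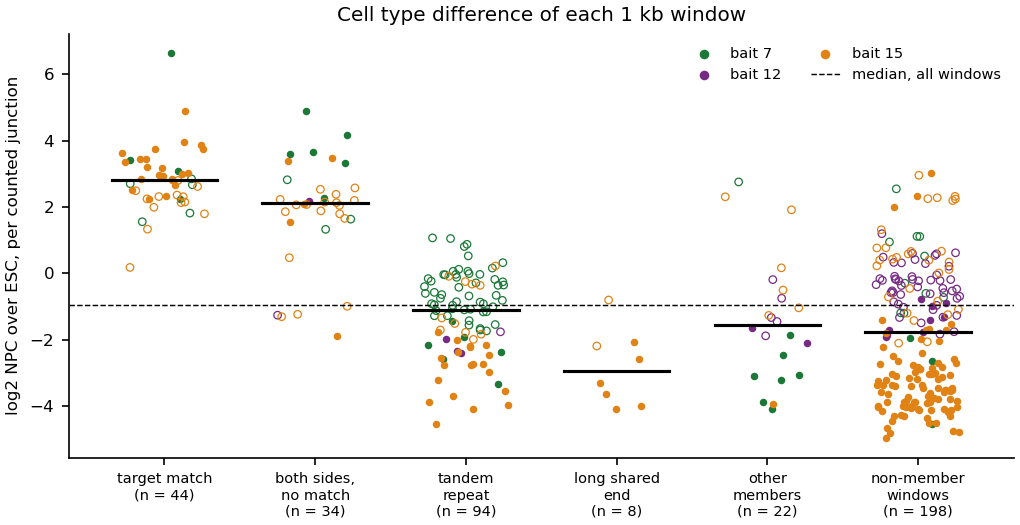
Log2 NPC over ESC per counted junction (y axis) for each of the 400 windows, by kind (x axis, n = windows) and coloured by bait; filled points passed edgeR's test at an adjusted p under 0.05, bars are medians and the dashed line is the median of all windows. The windows of matched cuts have a median of 2.81, repeat windows -1.11 and windows with a long shared end -2.96.

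Tandem repeats made up 94 of the 157 sites. A prey read was counted as repeat when its first 40 bases were at least 80% identical to themselves shifted by 1 to 6 bases, and a site when at least 50% of its reads were. The units at these sites differed between the baits. For bait 7, 58 of 59 repeat sites had the unit AGAGGC; for bait 15, 21 sites had AGAT, 6 had runs of C and 3 had AAGGTC; the 4 repeat sites of bait 12 had AC. One site each of 4 of these units is shown to make them visible, with capitals at the first full unit on the strand read.
Bait 7, AGAGGC, chr14:28341444-28341485: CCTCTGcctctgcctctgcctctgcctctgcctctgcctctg
Bait 15, AAGGTC, chr16:31902131-31902169: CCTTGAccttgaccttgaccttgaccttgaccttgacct
Bait 15, AGAT, chr17:91418051-91418092: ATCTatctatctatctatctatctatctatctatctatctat
Bait 12, AC, chr10:39824210-39824251: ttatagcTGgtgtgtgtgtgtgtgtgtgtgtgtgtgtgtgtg

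AGAGGC reads were nearly all of bait 7 and were found in members and outside them. Over all counted junctions there were 3295 from bait 7, or 416 per 10000, against 30 from bait 12 (2.97 per 10000) and 22 from bait 15 (1.01 per 10000). The 58 sites held 1505 junctions, and 41 had at least 2 junctions on both strands. The arrangement of strands differed from that at matched cuts. Of 47 repeat sites with both strands, 4 had the median plus-strand position to the right of the median minus-strand position, against 9 of 9 matched sites.

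Within bait 7, AGAGGC reads were more frequent with APH in each of the 4 pairs of pools. ESC line 1 had 1258 per 10000 with APH and 890 with DMSO, ESC line 2 had 278 and 249, NPC line 1 had 547 and 253, and NPC line 2 had 444 and 89.9. The ratios were 1.41, 1.12, 2.16 and 4.94. The mean log2 ratio was 1.02 (SD 0.94, n = 4 pairs; exact permutation test swapping treatment within pairs, two-sided p = 0.125, the smallest this design allows). Levels between cell lines differed by more than the treatments did in ESC. Single experiments also spread widely, from 238 to 2642 per 10000 within ESC line 1 APH. In NPC line 2 they ran from 150 to 1136 with APH and from 15.3 to 315 with DMSO, so these ranges overlapped. In NPC line 1 the ranges, 459 to 622 with APH and 169 to 326 with DMSO, did not overlap.

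**Figure D5:**
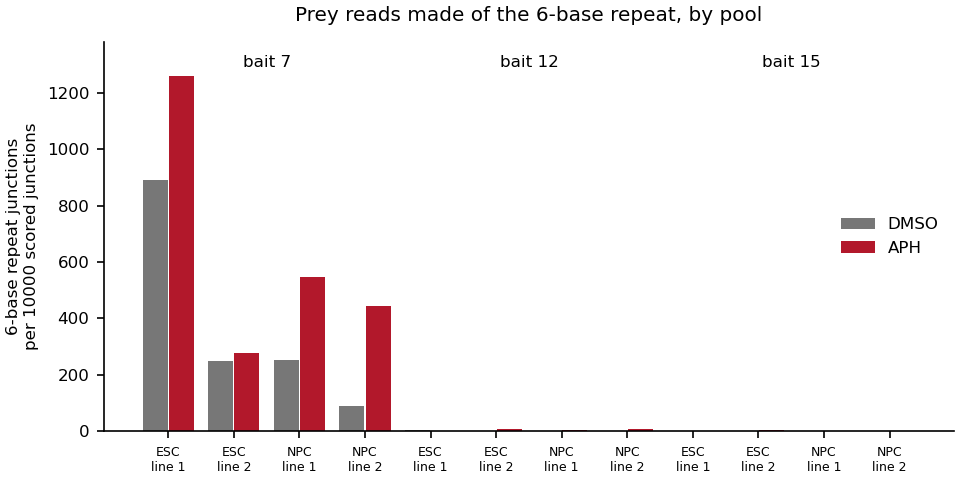
Junctions whose prey read is the 6-base repeat AGAGGC per 10000 scored junctions (y axis, starting at 0) in each of the 24 pools, grouped by bait on the x axis. Bait 7 pools lie between 89.9 and 1258, with APH above DMSO in each pair, and the other baits reach at most 6.64.

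The bait 7 site with the most repeat junctions was chr14:28341001-28342000, with 22, 15, 11 and 4 junctions in ESC and 55, 12, 25 and 10 in NPC. Its log2 APH over DMSO was 0.95 (edgeR adjusted p = 0.432). At chr11:58442001-58443000 the counts were 27, 12, 8 and 4 in ESC and 41, 7, 22 and 2 in NPC. There NPC over ESC was -1.43 (edgeR adjusted p = 0.0130) with counted junctions as library size, but 0.08 with TMM and 0.25 with DESeq2, so its direction depended on the scaling. The site chr13:24818001-24819000 had 19, 10, 2 and 1 in ESC and 44, 11, 28 and 8 in NPC. The site chr4:60094001-60095000 had 15, 2, 7 and 3 against 46, 7, 11 and 1, with a log2 APH over DMSO of 1.84 (edgeR adjusted p = 0.109). Per counted junction, APH was above DMSO in each line and cell type at all 4 of these sites, and none passed the test.

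AAGGTC reads came from bait 15 alone, with 283 junctions against 0 for baits 7 and 12. The unit is also the start of bait 15 candidate 1. ESC pools had 69.2, 108, 55.9 and 148 per 10000 scored junctions and NPC pools 2.94, 4.89, 2.75 and 3.96, so the cell types were ordered the other way from the matched cuts. The site chr16:31902001-31903000 held most of them, with 230 junctions on the plus strand, 2 on the minus strand and 144 at a single position. Its counts were 44, 50, 29 and 55 in ESC and 14, 12, 11 and 17 in NPC, a log2 NPC over ESC of -4.55 (SE 0.46, edgeR adjusted p = 1.61e-20; -2.59 with TMM). At chr2:169929001-169930000 the counts were 9, 12, 4 and 12 against 6, 1, 3 and 2, a log2 difference of -4.08. These and chr4:137907001-137908000 are the 3 repeat sites that came within 6 mismatches of the bait 15 target.

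Other repeat units of bait 15 were also denser in ESC. AGAT reads made up 55.1 per 10000 for bait 15 against 3.28 for bait 7 and 4.65 for bait 12. ESC pools of bait 15 had 110 to 220 and NPC pools 35.3 to 44.4, and 1 of the 21 sites had both strands. The largest site of C runs, chr10:59908001-59909000, had 21, 19, 24 and 20 junctions in ESC and 24, 19, 11 and 28 in NPC, a log2 difference of -3.23 (SE 0.42, edgeR adjusted p = 8.48e-13). Reads of C runs were not particular to bait 15, with 124 per 10000 against 103 for bait 7 and 19.4 for bait 12, and in bait 15 they ran from 384 to 1223 in ESC pools and from 37.8 to 62.6 in NPC pools. The median junction of the chromosome 10 site had 21 inserted bases between bait and prey (overlap -21). Over the 94 repeat windows, 0 were higher and 29 lower in NPC (30.9%, against 38.2% of all windows), with a median log2 difference of -1.11 against -0.96 over all windows, so neither sets the repeats apart. With TMM the median was 0.26 against 0.47, with 2 higher and 8 lower (8.51%, against 22.0%), so the direction of the repeat windows as a group depended on the scaling.

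At 8 sites, all of bait 15, bait and prey shared a long end, set as a median overlap of 10 bases or more. Repeat sites that also reached this limit were kept with the repeats. The median overlap at the 8 sites was 17 bases, against 2.0 at the matched cuts and 2.0 over bait 15 junctions outside the members. That gap follows from how the sites were chosen. Overlaps of 10 bases or more made up 0.961% of bait 15 junctions outside the members. The most common overlap at each of the 8 sites held the same bases, and 3 are shown with capitals at the bases shared by bait and prey.
Bait 15, chr11:55983927: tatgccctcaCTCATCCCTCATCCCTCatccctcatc
Bait 15, chr3:115491934: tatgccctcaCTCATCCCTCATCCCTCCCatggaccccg
Bait 15, chr2:167533309: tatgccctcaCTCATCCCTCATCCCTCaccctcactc

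The largest of them, chr11:55983001-55984000, had 10, 10, 11 and 12 junctions in ESC and 5, 2, 5 and 4 in NPC, and 33 of its 60 junctions had the overlap shown. Its log2 NPC over ESC was -4.00 (SE 0.58, edgeR adjusted p = 1.74e-10). The site chr10:108151001-108152000 had 6, 11, 7 and 4 against 0, 3, 1 and 4, a log2 difference of -4.08. Of the 8 windows 6 (75.0%, against 38.2% of all windows) were lower and 0 higher in NPC. Among windows outside the members with most junctions from bait 15, 95 of 127 were lower. Their median log2 difference was -3.19, against -2.96 at the 8 windows, so neither value sets the 8 apart within bait 15. With TMM 4 of the 8 were lower (against 22.0% of all windows and 70 of those 127) and 0 higher. The median of the 8 was then -1.18. Only 1 of the 8 had both strands.

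At the remaining 22 sites no look-alike was found where the sequence could be searched. None of them met the limits above for an outward pattern, a repeat or a long shared end. A site of bait 15 among them still had 14 of 30 junctions with an overlap of 10 bases or more. NPC was lower in 10 of the 22 windows of these sites (45.5%, against 38.2% of all windows) and higher in 0. Under TMM 3 were higher (13.6%, against 25.5%) and 5 lower (22.7%, against 22.0%), so the share of lower calls was close to that of all windows. At chr3:46254001-46255000 bait 7 had 16, 12, 20 and 21 junctions in ESC, and 9, 7, 0 and 0 in NPC, with NPC line 2 at 0 in both treatments. The log2 difference was -3.89 (SE 0.55, edgeR adjusted p = 5.00e-11).

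Bait 12 had 13 members. Member windows of any bait held 0.281% of the counted junctions of bait 12, against 3.56% for bait 7 and 2.88% for bait 15. No look-alike of the bait 12 candidate targets was found within 9 mismatches at the 6 sites that could be searched. Those candidates would cut 1 or 2 bases from the placed break, whereas baits 7 and 15 each had a candidate cutting at it. More bait 12 reads ran past the placed break (6.17%) than ended at it (5.45%), so its target was less certain. The most populated member of bait 12, chr10:39824001-39825000, had 44 junctions, all on the minus strand and 42 at a single position, in an AC repeat. ESC pools had 11, 9, 4 and 5 and NPC pools 4, 7, 2 and 2, a log2 difference of -2.41 (SE 0.62, edgeR adjusted p = 0.000375; -1.31 and adjusted p = 0.0643 with TMM, adjusted p = 0.440 without line 1). At chr1:79687001-79688000, 5 plus and 29 minus junctions were divided as 0, 0, 0 and 2 in ESC and 10, 12, 4 and 3 in NPC, a log2 difference of 2.19 (edgeR adjusted p = 0.0287). Leaving out any one of 4 pools of bait 12 ended that call, with adjusted p from 0.0690 to 0.102, and so did leaving out line 1 (0.478) or line 2 (0.0899). The site chr17:28684001-28685000 had 34 junctions, all on the plus strand, with 0, 1, 8 and 14 in ESC and 2, 1, 2 and 6 in NPC, and did not pass the test (edgeR adjusted p = 0.0670).

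No window differed between APH and DMSO at an adjusted p under 0.05 in edgeR, members included (0 of 400, 0%), and DESeq2 also called 0. At an unadjusted p under 0.05 there were 40 of 400 windows (10.0%) and 22 of the 202 members; 25 windows (6.25%) and 15 members were higher with APH and 15 windows (3.75%) and 7 members lower. Among the 59 repeat windows of bait 7, 50 had APH above DMSO, against 222 of all 400 windows. Their median log2 difference was 1.13 against 0.11 over all windows. The matched windows leaned the other way, 13 of 44 being higher with APH and the median being -0.28. Those 44 windows come from 9 sites, and 58 of the 59 repeat windows share the unit AGAGGC. Windows counted here are thus not separate observations. Most of the 59 repeat windows also held under 10 junctions in DMSO alone, so they passed the junction limit only with APH. Their lean towards APH and their median are therefore a description. Around the matched cuts of bait 15, APH was below DMSO per counted junction in all 4 pairs of pools. Per 10000 of all junctions of the pool, NPC line 2 was level, with 69.4 for APH and 69.0 for DMSO. For bait 7 APH was below DMSO in both NPC lines and above it in both ESC lines, the latter on 1 to 7 junctions a pool. In simulated data with 80 windows changed by 2 on the log2 scale, the same fit called 27 for treatment and 10 for cell type with 0 false calls, so changes of that size could often be missed at this depth.

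The members were shallow as a group. Their median was 17 junctions, 117 of 202 held under 20 and 27 held exactly 10, while 31 windows of one bait stopped at 9. Windows just inside the junction limit were chr1:77465001-77466000 and chr1:140599001-140600000 of bait 15 and chr1:125716001-125717000 of bait 7, with 10 each. On the share limit, chr5:145528001-145529000 had 90% of its 20 junctions from bait 15, and chr4:155610001-155611000 fell outside with 87.7% of 57 from bait 7. Of the members 165 drew every junction from one bait. No site rested on a single pool, 26 sites had junctions in 8 of the 8 pools of their bait, and 11 drew over 50% of their junctions from 1 pool. No read name was shared between pools.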

How the data were processed

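HTGTS libraries of genomic DNA were read in 24 pools, each of one cell type, line, bait and treatment. Per the file headers and values, each row of the deposited tables is one junction read, so sums of rows are raw counts. Positions and strand are those of the alignment to mm9, made with Bowtie2 per the submitters' processing notes; which junction caller and filters were used, and whether duplicates were removed, was not given in the sources used here. Repeated read names within a pool were dropped (18609 of 2037403 rows); different reads of one molecule could not be told apart. In 3 tables the experiment letters in the read names differed from the labels, and these tables were used as whole pools.

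Counts in 400 windows were fitted with edgeR 4.0.16 (glmQLFit and glmQLFTest) under R 4.3.3, with 6 line and bait blocks, cell type and treatment as terms, counted junctions as library size without TMM, and Benjamini-Hochberg adjustment over all windows; DESeq2 1.42.0 was an alternative, as were other scalings, filters and left-out pools or lines. The fit was tested on simulated data. Nothing states that pools came from separate cultures, so p-values reflect only how far these pools spread, which may be technical. No mm9 genome was used: site sequences are the majority base of at least 2 prey reads, and promoters were matched through shared stretches of 30 bases to RefSeq sequences of GRCm38.p6, with no coordinate carried over. For each bait the 10 sites with the most junctions, the look-alikes, up to 10 called members per comparison and up to 3 windows beside each limit could be named; 5 others (chr17:91418051-91418092, chr3:115491934, chr2:167533309, chr16:50959001-50961000 and chr2:161804001-161805000), the near matches and the kinds of site were chosen after the values were seen. The members and lists were chosen with earlier results of these data known.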

Additional observations from a re-analysis of the deposited data

Results flagged for a closer look

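Experiments within a pool were compared by junctions within 10 kb of the matched cuts, or by AGAGGC reads, per 10000 junctions. Of 18 such groups, 4 held an experiment whose gap to the nearest of the rest passed Dixon's 95% limit, a limit that by its construction flags about 1 in 20 groups by chance; the chance rate in these groups was not measured. ESC line 1 with bait 7 and APH had 62.5 in experiment C, with a median of 0 over 8 experiments. NPC line 1 with bait 7 and DMSO had 221 in experiment D, with a lowest value of 155 and a median of 156. ESC line 1 with bait 15 and DMSO had 164 in experiment B against a lowest of 5.37 and a median of 11.2. NPC line 1 with bait 15 and APH had 84.1 in experiment A, while the others reached 232 and the median was 214.

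Around the matched cuts of bait 7, the difference between APH and DMSO had opposite signs in the cell types, in both lines: a mean of -72.6 junctions per 10000 counted in NPC and values above 0 in ESC. This difference was not tested.

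Chromosomes left out of the rule held similar junctions. Bait 7 had 287 AGAGGC junctions on chromosome 7, of 481468 in all there, against 2 from the other baits; 58 lay in chr7:147400001-147410000, at least 66955190 bases from the break, where the other baits had 0. On chromosome X, 9 windows met the rule for members. The most populated were chrX:81683001-81684000, with 93 junctions all of bait 15, and chrX:100945001-100946000, with 90 of 91 from bait 7.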

How the results depend on the processing

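The 83 members called between NPC and ESC (37 higher, 46 lower) became 91 with TMM (74 higher, 17 lower), 0 with DESeq2 (2 at an unadjusted p under 0.05), 44 when windows of 5 or more junctions were tested, 28 without line 1 and 36 without line 2. Without the 3 tables whose letters differ from the labels, an alternative chosen after seeing the data, there were 53. Leaving out one pool at a time gave 68 to 86, the lowest without NPC line 2 with bait 15 and APH. Of 29 called windows tracked by name, 22 kept their call with TMM and 6 lost it; chr11:58442001-58443000 reversed, from -1.43 to 0.08 with TMM and 0.25 with DESeq2. The 0 calls for APH became 4 with all junctions as library size, 1 with each position counted once, 1 without the 3 tables, and 0 to 1 with a pool left out. The number of members was 85 at a limit of 20 junctions, and 7 sites had a match of at most 4 mismatches. The causes of these changes were not tested.

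Experiments with the same letter were checked for pairing: over 35 pairs the correlation of deviations ran from -0.19 to 0.41 (median 0.03), and 11 matched best with their own letter, so the letters were not taken as pairs. Tested as single experiments, APH gave 8 calls with a replicate block on the letter (4 higher, 4 lower) and 9 without it. The ESC depth limited the smaller sites.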
